A study of Homo sapiens with 1536 samples.

Results

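The compounds described here are the estrogen receptor and steroid synthesis blockers of a barcoded drug screen: FourHydroxytamoxifen, Fulvestrant, Letrozole, Anastrozole, Exemestane and Abiraterone. They were chosen by name, as every well of these 6 of 180 compounds, which gave 48 of 1536 wells and 240 of the 6960 deposited rows of relative cell number (1 row for each well and cell line). A few of the 180 compounds had counts but no relative cell numbers, and none of these was a member. Each member was tested at 4 doses in 2 replicate wells. FourHydroxytamoxifen, Fulvestrant and Exemestane covered 10, 100, 1000 and 10000 nM, whereas Letrozole, Anastrozole and Abiraterone covered 1, 10, 100 and 1000 nM.

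In the screen, called QMAP-Seq, each well held a pool of 5 human breast cancer cell lines (ZR-75-1, BT-20, HCC-38, SKBR3 and MDA-MB-231), each carrying 12 kinds of sgRNA, and cells were counted by sequencing their barcodes. All pools, those given DMSO included, had been grown with doxycycline at 100 ng/mL for 7 days, which switches on Cas9 in these lines, in RPMI-1640 with 10% Tet System Approved FBS, and were then treated for 72 hours. Known numbers of cells of a human embryonic kidney line were added with the lysis buffer as standards that turn reads into cell numbers. The 96 DMSO wells were the controls.

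Estrogen receptor alpha is a nuclear receptor that, once it binds estradiol, drives genes for proliferation in hormone-dependent breast cancer. It can be blocked at the receptor or by cutting the supply of its ligand. Aromatase (CYP19A1) makes estrogens from androgens, and CYP17 acts earlier in the same path, on the way from progestogens to androgens. FourHydroxytamoxifen, the active metabolite of tamoxifen, is a triphenylethylene that occupies the receptor as a selective modulator. Fulvestrant has a steroid core with a long side chain and both blocks the receptor and leads to its degradation. Letrozole and Anastrozole are non-steroidal triazoles that inhibit aromatase reversibly, Exemestane is a steroid that inactivates aromatase irreversibly, and Abiraterone is a steroid that inhibits CYP17. ZR-75-1 is the estrogen receptor-positive line of the pool. SKBR3 carries amplified HER2 and lacks the receptor, and BT-20, HCC-38 and MDA-MB-231 are triple-negative lines. These are background facts on the lines: neither the receptor, nor aromatase, nor any steroid was measured in these wells. The steroid content of the serum is not given in the sources used here.

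Because a line is told from the others in its well only by its cell line barcode, the barcodes are given here. The line values below start from reads that carry one of them. Except where reads are tested, these reads are turned into cell numbers with the added standards, which carry a barcode of their own.
ZR-75-1: ATCACTGG
SKBR3: CGGTGACC
HCC-38: TACAGAGG
MDA-MB-231: TAACAGTT
BT-20: ATTGTCAA

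The value of a line in a well is its relative cell number, the percentage of the median of the DMSO wells, averaged over its sgRNAs. In the 96 DMSO wells ZR-75-1 had a mean of 101.6% with an SD of 14.3 and ranged from 64.3 to 148.8%. The other lines had DMSO means of 100.9 to 101.8% and SDs of 10.6 to 12.7. Member wells held 242619 to 1576416 reads with a median of 644252, and DMSO wells 155067 to 986006 with a median of 522691. No cell line-sgRNA pair used here had 0 reads in a member well, and ZR-75-1 alone had 16204 to 150097 reads per member well. These are PCR reads, so their number does not bound the error of sampling cells or molecules. Each plate held 1 dose level of 1 replicate, so dose and plate cannot be told apart except through the DMSO wells of the plate. Read from the order of the deposited libraries, FourHydroxytamoxifen lay on plates 9 to 16 and the other 5 members on plates 1 to 8. That order repeated from plate to plate, so each compound appears to have kept its well position. Compound and position then cannot be told apart.

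ZR-75-1 cells were called fewer than in DMSO at every dose of FourHydroxytamoxifen and Fulvestrant, and at no dose of the 4 synthesis inhibitors. A line was called lower or higher where limma, fitted to the log2 values of all compounds, gave an adjusted p under 0.05 against DMSO. That fit treats the 5 lines of a replicate as separate values, though they share wells, and takes the DMSO mean as fixed. By that rule the 6 compounds had 12 lower values among 120 (6 compounds, 4 doses, 5 lines), where 35.7% of all such values in the screen were lower. All 12 belonged to the receptor ligands. ZR-75-1 accounted for 8 of the 12, which are all 8 of its values with a ligand, and its share lower across the whole screen was 40.4%. Against the DMSO wells of the same plates 7 of these 8 passed, without FourHydroxytamoxifen at 1000 nM (log2 −0.38, adjusted p = 0.0526), and from sgNT cells alone, 1 population in place of the mean over sgRNAs, 3 of 8 passed. In a limma fit over wells, added after the data were seen, all 8 passed, and 5 of 8 without replicate 1 as well as without replicate 2. The share of the screen called in the fit over wells is not given here, so its counts have no background beside them. By the first rule 4 of 96 values were lower in the other lines. A single value of 120 was higher, against 1.90% in the screen.

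With FourHydroxytamoxifen, ZR-75-1 was already called lower at the lowest dose. Its relative cell number was 84.3% and 72.3% in the wells at 10 nM, a log2 difference from DMSO of −0.37 with an adjusted p of 0.00829. At 100 nM the wells gave 80.6% and 75.4% (log2 −0.37, adjusted p = 0.00929), and at 1000 nM 63.4% and 78.8% (log2 −0.51, adjusted p = 0.00174). The ZR-75-1 wells at 10 and 100 nM lay within the range of the DMSO wells, whose lowest was 64.3%. Over all doses 3 of 8 wells were below that lowest DMSO well. The limma fit over wells gave an adjusted p of 0.0441 at 10 nM and 0.0431 at 100 nM. Between 10 and 1000 nM, a 100-fold range, the change in ZR-75-1 was −0.14 on the log2 scale, with a 95% interval of −0.51 to 0.23. None of the other lines passed the test at these 3 doses, and their wells lay between 79.9 and 110.5%. The fit was also run with the replicate as a block, which takes out the shift that all 5 lines of a replicate share. That shift is part of the error of a line against DMSO, so block calls against DMSO rest on less than the full spread between wells. With the block MDA-MB-231 (adjusted p = 0.0301) and BT-20 (adjusted p = 0.0406) were also lower at 100 nM; in the fit over wells neither was (adjusted p = 0.282 and 0.204).

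At 10000 nM other lines were lower too. ZR-75-1 fell to 43.9% and 36.3%, and SKBR3 to 45.3% and 34.9%, both −1.33 on the log2 scale with an adjusted p of 1.50e-05. MDA-MB-231 fell to 70.2% and 57.9% (log2 −0.66, adjusted p = 0.00198) and HCC-38 to 83.6% and 73.3% (log2 −0.37, adjusted p = 0.0432), though HCC-38 missed the threshold against the DMSO wells of the same plates (log2 −0.36, adjusted p = 0.123). BT-20 stood at 89.9% and 72.8% and missed the threshold (log2 −0.32, adjusted p = 0.0808). It passed with the block (adjusted p = 4.53e-04) and in the fit over wells (adjusted p = 0.0128), and not against the DMSO wells of the same plates (log2 −0.33, adjusted p = 0.154). The step from 1000 to 10000 nM was −0.82 in ZR-75-1 (adjusted p = 1.89e-04), −1.22 in SKBR3 (adjusted p = 8.70e-10) and −0.58 in MDA-MB-231 (adjusted p = 0.00124). In HCC-38 this step was −0.25 and in BT-20 −0.26, both with an adjusted p of 0.220. The step is one between plates as well as doses. Against the DMSO wells of the same plates it was −1.02 in ZR-75-1, −1.29 in SKBR3 and −0.68 in MDA-MB-231.

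With Fulvestrant ZR-75-1 was called lower at all 4 doses. The lowest mean was at 1000 nM, but the replicates differed: replicate 1 was lowest at 1000 nM and replicate 2 at 100 nM. The step from 1000 to 10000 nM was not called. ZR-75-1 had 79.7% and 64.4% at 10 nM (log2 −0.49, adjusted p = 0.00268) and 67.1% and 56.1% at 100 nM (log2 −0.71, adjusted p = 8.63e-05). At 1000 nM the wells gave 51.5% and 65.3% (log2 −0.80, adjusted p = 1.14e-04), and at 10000 nM 76.8% and 56.2% (log2 −0.62, adjusted p = 0.00374). All 8 wells were below the median of the DMSO wells, and 3 of the 8 were below the lowest DMSO well. From the lowest to the highest dose the change was −0.12, with an interval of −0.50 to 0.25 and an adjusted p of 0.902.

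Outside ZR-75-1, Fulvestrant lowered SKBR3 at 100 nM, to 74.4% and 82.3% (log2 −0.36, adjusted p = 0.00852). SKBR3 had 89.7% and 87.6% at 10 nM, 80.2% and 90.7% at 1000 nM and 93.5% and 70.1% at 10000 nM, none of which passed. Against the DMSO wells of the same plates it passed at 10 nM (log2 −0.27, adjusted p = 0.0366) and 10000 nM (log2 −0.36, adjusted p = 0.0480). With the replicate block SKBR3 was lower at 1000 nM (adjusted p = 0.00864) and 10000 nM (adjusted p = 0.00342) as well. The block also made MDA-MB-231 lower at 100 nM (adjusted p = 0.0446) and 10000 nM (adjusted p = 0.0246), and BT-20 at 100 nM (adjusted p = 0.0158). In the fit over wells none of these 5 passed, with adjusted p of 0.0669 or more. HCC-38 had 81.8 to 110.1% over the 8 wells and was not called at any dose in either fit.

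**Figure D1:**
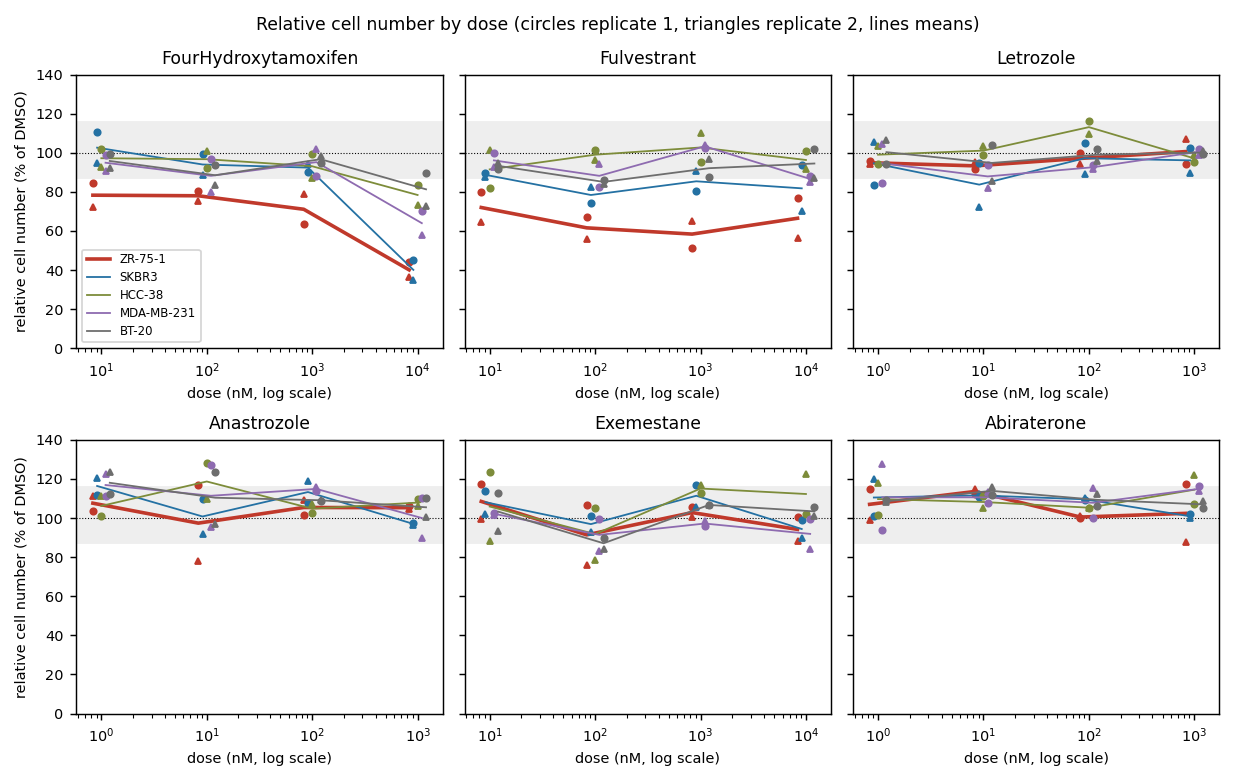
Relative cell number (% of DMSO, vertical axis) against dose (nM, log scale) for each of the 6 compounds and 5 cell lines; circles are replicate 1, triangles replicate 2, lines the means, and the grey band is the mean ± SD of ZR-75-1 in the 96 DMSO wells. ZR-75-1 lies below the other lines with FourHydroxytamoxifen and Fulvestrant at 10 to 1000 nM, is joined by SKBR3 at 10000 nM FourHydroxytamoxifen, and runs among the other lines with the 4 synthesis inhibitors.

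The aromatase inhibitors and Abiraterone gave no lower value in any line: 0 of 80 values were called lower and 1 was called higher by limma, with 11 of the 80 at an unadjusted p under 0.05. In ZR-75-1, Letrozole wells had a lowest value of 91.5% and a median of 94.7%, and Anastrozole wells ranged from 77.9 to 116.9% with a median of 105.3%. Exemestane wells ranged from 76.2 to 117.6% (median 100.3%) and Abiraterone wells from 87.5 to 117.2% (median 106.8%). None of these 32 wells was below the lowest DMSO well of ZR-75-1.

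The lowest of them were 76.2% with Exemestane at 100 nM and 77.9% with Anastrozole at 10 nM, and in both cases the partner well stood above 100%. Exemestane at 100 nM gave 106.6% in its other well, and Anastrozole at 10 nM gave 116.9%. At 10000 nM, the highest dose of any synthesis inhibitor, Exemestane left ZR-75-1 at 100.3% and 88.2% (log2 −0.10, interval −0.31 to 0.11). At 1000 nM, the highest dose of the others, the log2 difference of ZR-75-1 was 0.00 with Letrozole (interval −0.18 to 0.17), 0.07 with Anastrozole (−0.12 to 0.25) and 0.01 with Abiraterone (−0.22 to 0.23).

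The fit over wells called 0 of the 80 by limma, with 3 at an unadjusted p under 0.05. The higher value was BT-20 with Anastrozole at 1 nM, the lowest dose, which had 112.4% and 123.7% (log2 0.23, adjusted p = 0.0427). In the same wells SKBR3 had 111.97% and 120.7% and MDA-MB-231 111.5% and 122.3%, so that several lines stood high together. Anastrozole wells held 1027026 to 1576416 reads, where no DMSO well held more than 986006. Whether this depth bears on the higher values was not tested. With the replicate block 11 of the 80 values were higher and 2 lower, where 4.94% and 44.2% of the whole screen were. Of the 11, 6 belonged to Anastrozole and 3 to Abiraterone, and the largest shift in ZR-75-1 was with Abiraterone at 10 nM, at 112.5% and 114.7% (log2 0.17). The 2 lower values were SKBR3 with Letrozole and BT-20 with Exemestane.

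Whether a compound acted more on ZR-75-1 than on the rest was tested as the log2 value of ZR-75-1 minus the mean of the other 4 lines, all grown in the same wells. In DMSO wells this difference had an SD of 0.15 and ran from −0.37 to 0.31. It was below the median of DMSO in all 8 wells of each receptor ligand, and below the lowest DMSO well in 3 wells of FourHydroxytamoxifen and 5 of Fulvestrant. None of the 32 wells of the synthesis inhibitors was below the lowest DMSO well.

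For FourHydroxytamoxifen the wells differed by −0.28 and −0.36 at 10 nM, −0.24 and −0.22 at 100 nM, −0.55 and −0.27 at 1000 nM and −0.67 and −0.66 at 10000 nM. The means at 1000 nM (−0.41, adjusted p = 0.0299) and 10000 nM (−0.66, adjusted p = 0.0128) passed. Those at 10 nM (−0.32, adjusted p = 0.0640) and 100 nM (−0.23, adjusted p = 0.197) did not. ZR-75-1 was thus the lower side in all 8 wells, by differing amounts. The call at 1000 nM was lost against the DMSO wells of the same plate (−0.33, adjusted p = 0.235), against those of the same dose and replicate label (−0.38, adjusted p = 0.0914), with the median over sgRNAs (−0.38, adjusted p = 0.0569) and in the fit over wells without replicate 1 (−0.26, adjusted p = 0.367).

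For Fulvestrant the wells differed by −0.18 and −0.54 at 10 nM, −0.35 and −0.66 at 100 nM, −0.82 and −0.62 at 1000 nM and −0.32 and −0.56 at 10000 nM. The means at 100 nM (−0.51, adjusted p = 0.00697) and 1000 nM (−0.72, adjusted p = 0.00242) passed, and those at 10 nM (−0.36, adjusted p = 0.0576) and 10000 nM (−0.44, adjusted p = 0.0781) did not. The doses that passed thus differed between the ligands, but no difference between doses was called in this readout. Over the members limma called 0 of 6 for the highest against the lowest dose. It called 0 of 6 for 1000 against 10 nM and 0 of 3 for 10000 against 1000 nM.

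Over the 6 compounds 4 of 24 values were called lower, against 8.48% of all compounds and doses. From sgNT cells alone 0 of the 24 passed by limma (4 at an unadjusted p under 0.05). The fit over wells called 7 of the 8 ligand values, 5 without replicate 1 and 3 without replicate 2, and no other. No share of the screen is given here for the fit over wells. Since the 5 lines of a replicate share wells, the limma fit over compounds was also run with the replicate as a block. It called all 8 ligand values and no other, 8 of 24, against 15.8% in the screen. In that fit the adjusted p of FourHydroxytamoxifen was 0.00207, 0.0450, 0.00253 and 4.61e-06 from the lowest to the highest dose, and that of Fulvestrant 0.0104, 3.86e-04, 4.77e-06 and 0.00113. The 16 values of the synthesis inhibitors ran from −0.20 to 0.05, with 0 called and 0 at an unadjusted p under 0.05 in the fit without the block, and 0 called and 1 at an unadjusted p under 0.05 with it.

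**Figure D2:**
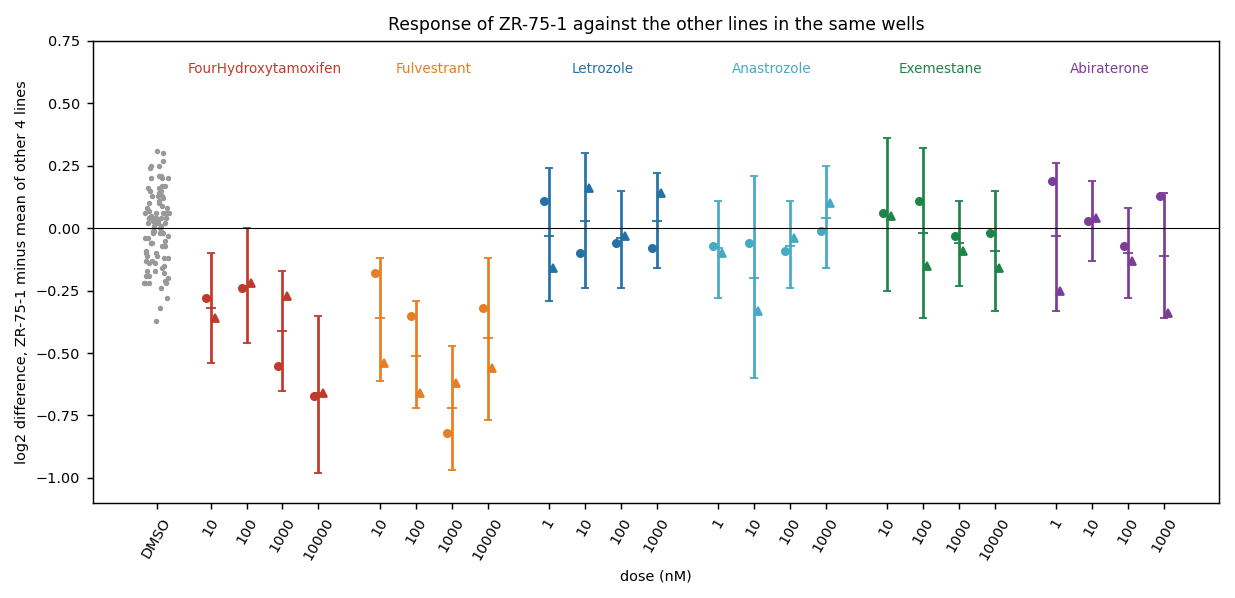
Log2 relative cell number of ZR-75-1 minus the mean of the other 4 lines in the same well (vertical axis) for each compound and dose (nM), with the 96 DMSO wells as grey points; circles are replicate 1, triangles replicate 2, bars 95% intervals around the mean from limma. All 16 wells of the receptor ligands lie below 0, and the synthesis inhibitors scatter within the range of the DMSO wells.

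Taken line by line, a contrast added after the data were seen, ZR-75-1 was lower than each other line in 3 of 16 comparisons with FourHydroxytamoxifen and in 7 of 16 with Fulvestrant, where 9.02% of all such comparisons were called lower. With the replicate block these became 12 and 14 of 16, where 16.7% were. At 10000 nM FourHydroxytamoxifen, ZR-75-1 and SKBR3 differed by 0.00 with an interval of −0.40 to 0.40. At the same dose ZR-75-1 was lower than HCC-38 by a log2 difference of −0.96 (adjusted p = 0.00568), than MDA-MB-231 by −0.67 (adjusted p = 0.0325) and than BT-20 by −1.02 (adjusted p = 0.00438). The contrast with the mean of the other lines at that dose therefore rests on the 3 triple-negative lines. With Fulvestrant at 1000 nM, ZR-75-1 was lower than every other line, from −0.56 against SKBR3 (adjusted p = 0.0249) to −0.83 against MDA-MB-231 (adjusted p = 0.00374).

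The doses were also summed to an area under the curve (AUC, 300 for an untreated line). With Fulvestrant the AUC of ZR-75-1 was 196.9 and 181.7, against 246.2 and 251.9 in SKBR3 and 288.3 and 303.02 in HCC-38. The difference from the mean of the other 4 lines was −85.4 with an SE of 7.18 (interval −101.7 to −69.1, adjusted p = 8.71e-05), the second lowest of all compounds with relative cell numbers. With FourHydroxytamoxifen it was −59.7 with an SE of 8.47 (interval −78.9 to −40.4, adjusted p = 0.00156), the third lowest. From sgNT cells alone the differences were −66.6 (adjusted p = 0.0871) and −75.3 (adjusted p = 0.101), and neither passed. The lowest was RITA, at −159.6. Among all compounds 12.1% were called lower by this measure, and among the 6 members 2 were.

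Anastrozole followed at rank 37 with −20.1 (interval −46.0 to 5.82, adjusted p = 0.277), from −15.3 and −24.9 in the replicates, and passed only with the replicate block (adjusted p = 0.0427), a fit that called 24.7% of all compounds. Abiraterone had −9.89 (rank 67), Exemestane −6.53 (rank 79) and Letrozole −1.95 (rank 93), each with an adjusted p of 0.570 or more. The sign of these 4 values was not stable: Anastrozole had 18.3 from sgNT cells alone, Abiraterone 8.57 and Exemestane 3.47 with all 12 sgRNAs of ZR-75-1, and Letrozole 7.5 with pairs of at least 0.5% of DMSO reads. Ranks mix both dose ranges, so an AUC of Letrozole, Anastrozole or Abiraterone describes doses 10-fold lower than an AUC of the other members, and the AUCs are set side by side without a test between compounds.

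**Figure D3:**
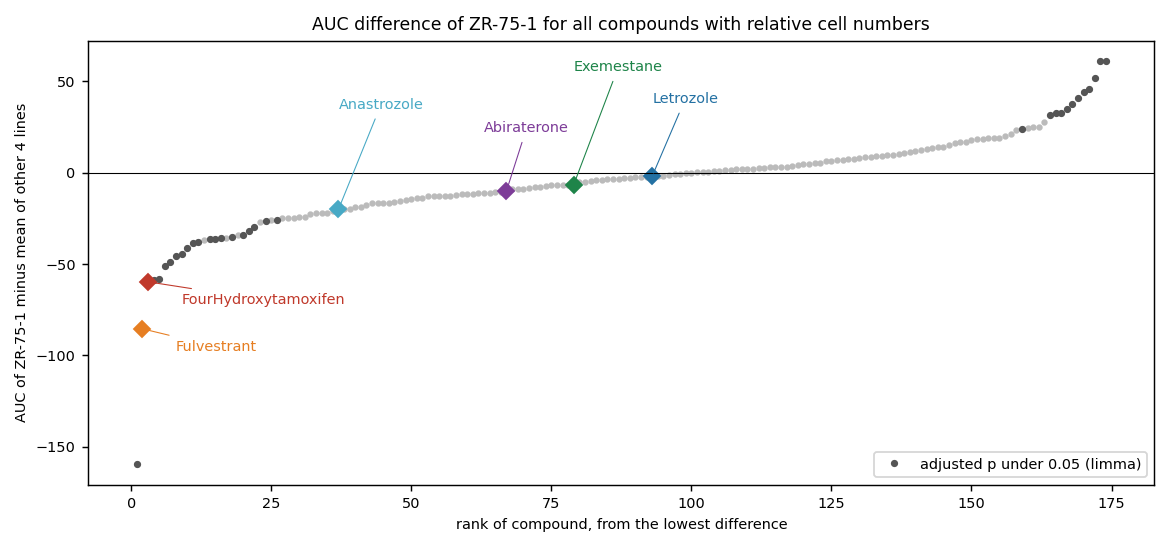
AUC of ZR-75-1 minus the mean AUC of the other 4 lines (vertical axis) for all compounds with relative cell numbers, ordered from the lowest (horizontal axis, rank); dark points passed the adjusted threshold in limma and diamonds are the 6 members. Fulvestrant (−85.4) and FourHydroxytamoxifen (−59.7) stand at ranks 2 and 3, and the synthesis inhibitors between ranks 37 and 93.

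All 6 compounds share the doses 10, 100 and 1000 nM, and over these they were compared in pairs and by class in a limma fit of the 48 member wells and the 96 DMSO wells. The receptor ligands left fewer ZR-75-1 cells than the 3 aromatase inhibitors, by −0.53 on the log2 scale (SE 0.07, interval −0.66 to −0.39, adjusted p = 7.85e-11). Against Abiraterone the ligands differed by −0.60 in ZR-75-1 (interval −0.79 to −0.42, adjusted p = 1.06e-08). In the difference of ZR-75-1 from the other lines, the ligands were lower by −0.40 than the aromatase inhibitors (adjusted p = 3.06e-10) and by −0.37 than Abiraterone (adjusted p = 1.16e-05). From sgNT cells alone the latter was −0.22 and did not pass (adjusted p = 0.421). The error of these tests is the spread between wells, with none between compounds of a class, and Abiraterone alone stood for CYP17 inhibition. The p-values thus speak for these 6 compounds and not for classes at large. Among these compounds the gap was wider in ZR-75-1 than in the mean of the other lines.

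The other lines differed between classes as well, by less. Ligands against aromatase inhibitors gave −0.15 in SKBR3 (adjusted p = 0.0318), −0.13 in HCC-38 (adjusted p = 0.0318), −0.14 in BT-20 (adjusted p = 0.0210) and −0.08 in MDA-MB-231 (adjusted p = 0.221). Against Abiraterone the same lines gave −0.18 to −0.26, all called. Aromatase inhibitors and Abiraterone differed by −0.08 in ZR-75-1 (interval −0.25 to 0.10, adjusted p = 0.446), and by −0.16 in MDA-MB-231 (adjusted p = 0.0374). Over the 18 class comparisons 12 were called. Part of each ligand value comes from FourHydroxytamoxifen, whose wells lie on other plates than those of the other members. Set against the DMSO wells of the same plates, the ligands differed from the aromatase inhibitors by −0.51 in ZR-75-1 and from Abiraterone by −0.58.

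Pair by pair, 15 pairs in 6 readouts (the 5 lines, and ZR-75-1 minus the others) gave 90 comparisons over the shared doses, and 26 were called after adjustment over the 90, or 9 without replicate 1 and 17 without replicate 2. A receptor ligand was lower than a synthesis inhibitor in 8 of 8 pairs in ZR-75-1 and in 8 of 8 in the difference from the other lines. FourHydroxytamoxifen differed in ZR-75-1 by −0.36 from Letrozole (adjusted p = 0.00638), −0.43 from Anastrozole (adjusted p = 9.12e-04), −0.41 from Exemestane (adjusted p = 0.00191) and −0.48 from Abiraterone (adjusted p = 2.18e-04). Fulvestrant differed by −0.61 from Letrozole to −0.73 from Abiraterone, with adjusted p of 1.19e-06 or less. In the other lines 9 of 32 such pairs passed, 3 in SKBR3, 2 in MDA-MB-231, 4 in BT-20 and 0 in HCC-38.

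Between the receptor ligands, the steroidal Fulvestrant and the triphenylethylene FourHydroxytamoxifen, ZR-75-1 was higher with FourHydroxytamoxifen by 0.25 over 10 to 1000 nM (interval 0.04 to 0.47), which missed the threshold (adjusted p = 0.0631). The same held for the difference from the other lines, at 0.21 (interval 0.04 to 0.38, adjusted p = 0.0536). Both passed against the DMSO wells of the same plates (0.27, adjusted p = 0.0235, and 0.22, adjusted p = 0.0291). At 10000 nM the order turned: FourHydroxytamoxifen left fewer cells than Fulvestrant by −0.72 in ZR-75-1 (adjusted p = 0.00418), −1.03 in SKBR3 (adjusted p = 1.61e-06) and −0.44 in MDA-MB-231 (adjusted p = 0.0421). Their values in the difference from the other lines were then −0.66 and −0.44, and differed by −0.22 (interval −0.52 to 0.08, adjusted p = 0.381). These p-values were adjusted over all comparisons at single doses (51 pairs and doses in 6 readouts).

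Among the synthesis inhibitors no pair passed the threshold in ZR-75-1. The triazoles Letrozole and Anastrozole differed by −0.07 (interval −0.29 to 0.14). Letrozole and the steroid Exemestane differed by −0.05 (interval −0.26 to 0.17), and Anastrozole and Exemestane by 0.03 (interval −0.19 to 0.24). The steroids Exemestane and Abiraterone, which act on different enzymes, differed by −0.07 (interval −0.28 to 0.15). These intervals leave room for differences of up to 0.33 in size, the bound for Letrozole against Abiraterone. In all 6 readouts 1 of 36 such comparisons was called, Letrozole against Abiraterone in MDA-MB-231, at −0.25 (adjusted p = 0.0203).

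**Figure D4:**
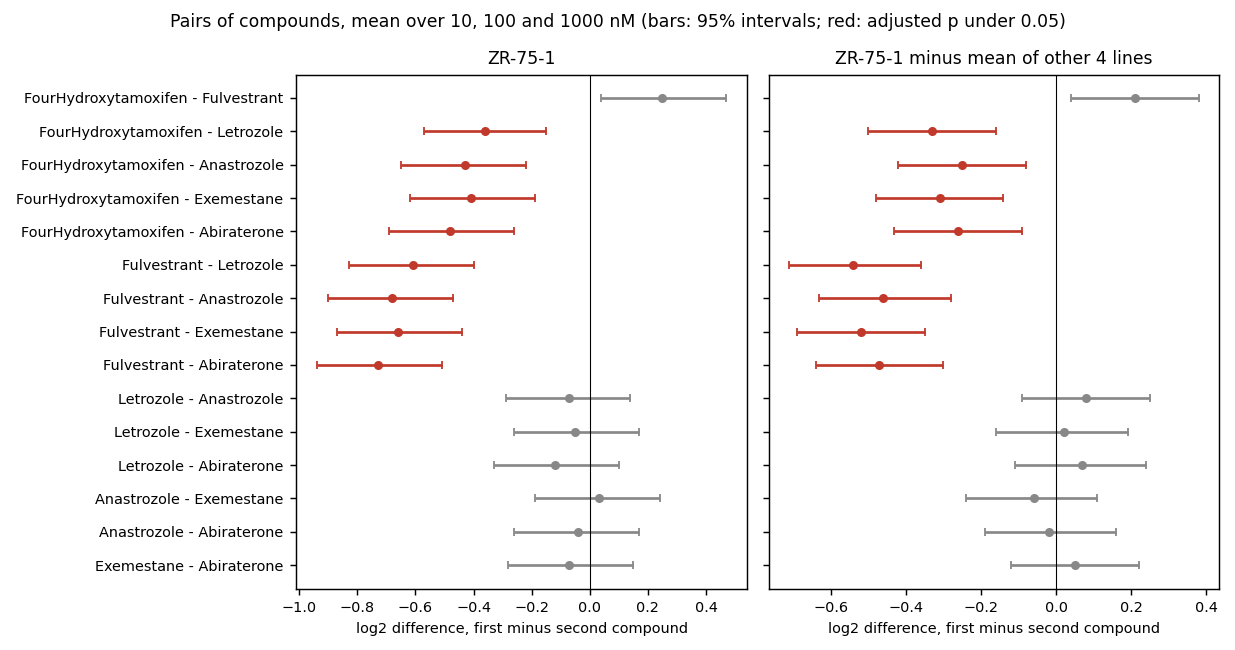
Log2 difference in relative cell number between the compounds of each of the 15 pairs, averaged over 10, 100 and 1000 nM, in ZR-75-1 (left) and in ZR-75-1 minus the mean of the other 4 lines (right); points are estimates, bars 95% intervals from limma, and red marks an adjusted p under 0.05. The 8 pairs of a receptor ligand with a synthesis inhibitor lie below 0 in both panels, and the 6 pairs of synthesis inhibitors span 0.

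At single matched doses 31 comparisons passed, of 51 pairs and doses in 6 readouts (5 without replicate 1 and 16 without replicate 2). They numbered 0 of 18 at 1 nM, 3 of 90 at 10 nM, 8 of 90 at 100 nM, 12 of 90 at 1000 nM and 8 of 18 at 10000 nM. Of the 31, 28 set a ligand against a synthesis inhibitor and 3 the ligands against each other, all at 10000 nM. At 10 nM the pairs that passed in ZR-75-1 were FourHydroxytamoxifen with Abiraterone (−0.54, adjusted p = 0.0461), Fulvestrant with Exemestane (−0.59, adjusted p = 0.0278) and Fulvestrant with Abiraterone (−0.67, adjusted p = 0.0101). Exemestane at 10000 nM could be matched with both ligands. It left more ZR-75-1 cells than FourHydroxytamoxifen, by a difference of −1.24 for the ligand (adjusted p = 1.06e-07), whereas Fulvestrant differed from it by −0.52 and missed the threshold (adjusted p = 0.0581). No pair of synthesis inhibitors passed at a single dose by limma (0 calls over 21 pairs and doses in 6 readouts, 10 at an unadjusted p under 0.05), and their largest difference in ZR-75-1 was 0.28 in size.

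Dose dependence within a compound was called for FourHydroxytamoxifen alone. Of 36 comparisons of the highest with the lowest dose 3 passed: ZR-75-1 (−0.97, adjusted p = 1.44e-05), SKBR3 (−1.36, adjusted p = 1.42e-11) and MDA-MB-231 (−0.57, adjusted p = 0.00263), all with that compound. From 10 to 1000 nM, 0 of 36 passed, Fulvestrant in ZR-75-1 included (−0.30, interval −0.68 to 0.07). That step was added after the data were seen, as was the step from 1000 to 10000 nM, where 3 of 18 passed.

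Each line was itself a set of sgRNA populations, and the fall in ZR-75-1 was spread over them. With FourHydroxytamoxifen the means of the 10 ZR-75-1 populations used were all below 100% at every dose. At 10 nM they ran from 65.6% (sgATF6) to 95.8% (sgNT) with a median of 77.2%, and at 10000 nM from 34.6% (sgNT) to 57.7% (sgATF6) with a median of 38%. Populations below 100% in both replicate wells numbered 8, 7, 9 and 10 from the lowest to the highest dose. With Fulvestrant all 10 means were below 100% at every dose too, with medians of 70.6% at 10 nM, 62.8% at 100 nM, 59.4% at 1000 nM and 65.5% at 10000 nM. Here 10, 10, 10 and 8 populations were below 100% in both wells. Such a pattern was not particular to ZR-75-1 or the ligands: all 12 means were below 100% in SKBR3 with Letrozole at 10 nM and in BT-20 with Exemestane at 100 nM. The populations share wells and are not replicates of the treatment.

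A count test was run on single populations. edgeR on the deposited read counts, scaled by the reads of the standards, called 84 member values lower and 9 higher, of 58 pairs at 4 doses of 6 compounds, where 28.3% and 1.11% of the screen were. FourHydroxytamoxifen had 57 of the 84 and Fulvestrant 20. Without replicate 1 the lower values numbered 56 (13 for Fulvestrant), and without replicate 2 they numbered 37 (28 for FourHydroxytamoxifen, 4 for Fulvestrant and 5 for Letrozole). For Fulvestrant 17 of the 20 were in ZR-75-1, with 2 in SKBR3 and 1 in BT-20. For FourHydroxytamoxifen 16 of the 57 were in ZR-75-1. At 10000 nM it had 9 of 10 populations of ZR-75-1, 12 of 12 of SKBR3, 11 of 12 of HCC-38, 10 of 12 of MDA-MB-231 and 6 of 12 of BT-20 lower. Letrozole had 5 lower, Exemestane 2 and the others 0, with none in ZR-75-1 for any synthesis inhibitor. TMM scaling on the reads of the 5 lines, which measures each population against the pool instead of the standards, gave 22 lower and 20 higher, and for FourHydroxytamoxifen 15 lower and 17 higher.

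**Figure D5:**
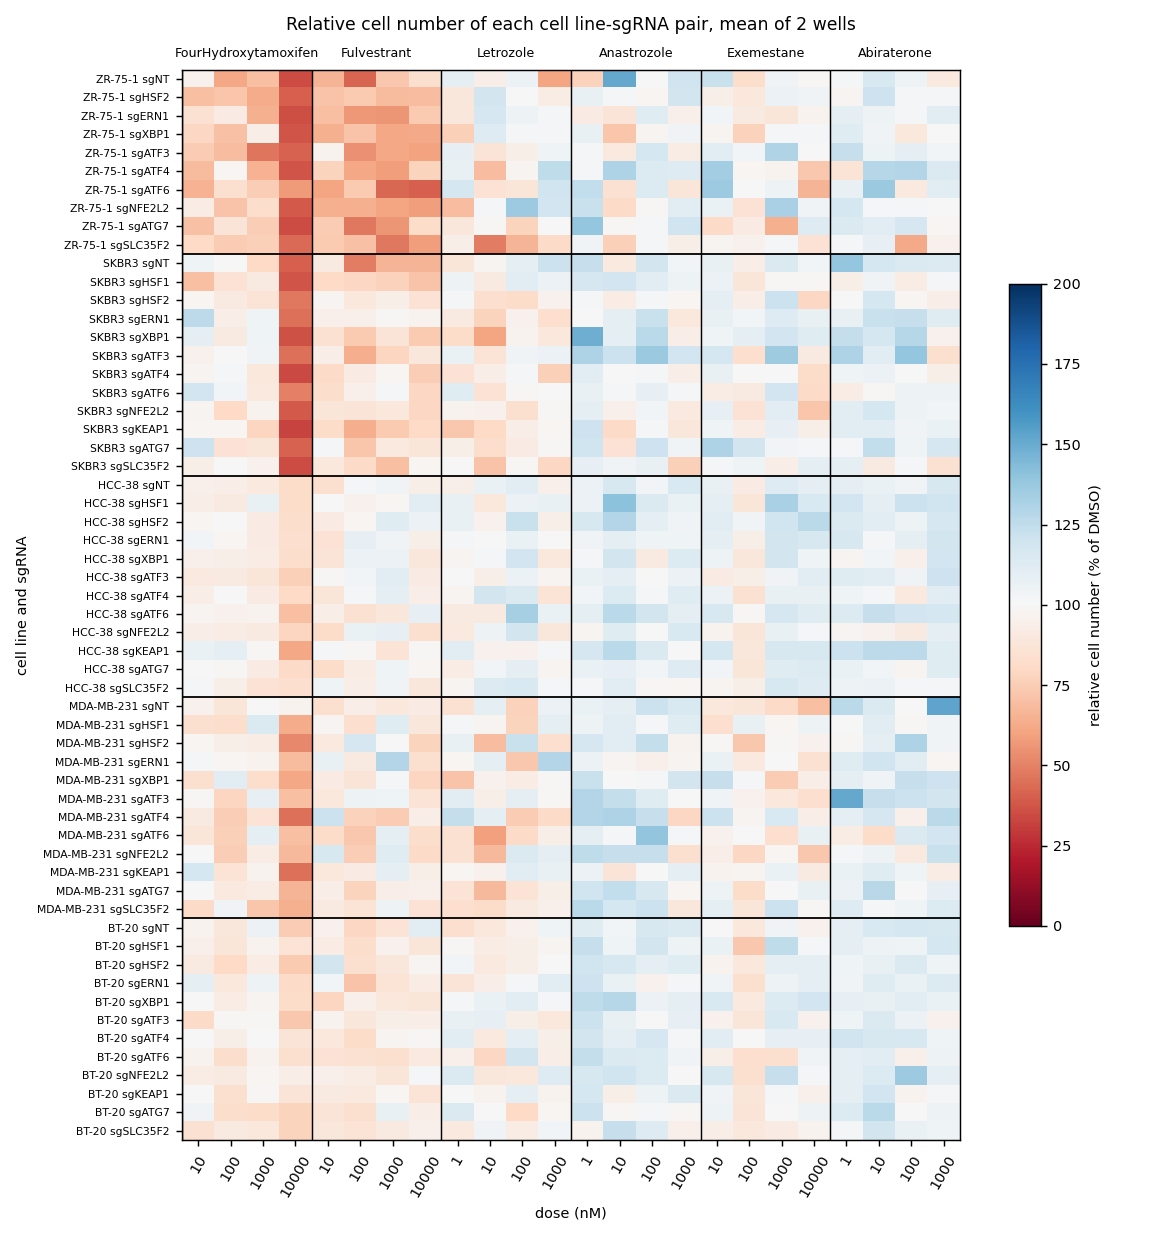
Relative cell number (% of DMSO, colour; mean of 2 wells) of each of the 58 cell line-sgRNA pairs (rows, grouped by cell line) for every compound and dose (nM, columns). Red cells fill the ZR-75-1 rows under both receptor ligands and the rows of every line at 10000 nM FourHydroxytamoxifen, where ZR-75-1 and SKBR3 have the lowest medians. Some other blocks are red throughout, such as SKBR3 and BT-20 with Fulvestrant at 100 nM.

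The sgRNAs target genes of the heat shock, unfolded protein, oxidative stress and autophagy responses and a drug transporter, and each was compared with sgNT, the non-targeting control, by AUC. Of 53 such comparisons for each of the 6 compounds, 2 were called higher by limma and 0 lower, with 19 at an unadjusted p under 0.05; in the screen 0.228% were called higher and 0.304% lower. Both were with Fulvestrant in SKBR3. sgERN1, against the sensor of endoplasmic reticulum stress IRE1, had AUCs of 287.3 and 291.8 where sgNT had 179.1 and 206.7, a difference of 96.7 (SE 17.7, adjusted p = 0.0163). sgATF6, against another such sensor, had 297.6 and 258.02, a difference of 84.9 (SE 17.7, adjusted p = 0.0414). Both rest on a low sgNT: it had the lowest AUC of the 12 SKBR3 populations, 192.9 against 218.5 to 289.6 for the rest, and differed by −59.9 from the median of all sgRNAs (adjusted p = 0.0181). Against that median sgERN1 differed by 36.8 (adjusted p = 0.207) and sgATF6 by 25 (adjusted p = 0.509). With that reference 2 other member values were higher, sgATF3 in SKBR3 with Anastrozole (67, adjusted p = 0.0327) and sgNFE2L2 in BT-20 with Abiraterone (32.6, adjusted p = 0.0383).

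Against sgNT the other extremes with the same sign in both replicates did not pass. With FourHydroxytamoxifen they were sgATF4 in MDA-MB-231 (−55.1, adjusted p = 0.420) and sgXBP1 in ZR-75-1 (25.5, adjusted p = 0.924). The lowest with Fulvestrant was sgATF6 in ZR-75-1 (−23.0, adjusted p = 0.915). Letrozole had sgSLC35F2 in ZR-75-1 (−81.2) and sgXBP1 in BT-20 (39.1), and Anastrozole sgXBP1 in ZR-75-1 (−74.5) and sgATF3 in SKBR3 (62.4). Exemestane had sgATF6 in BT-20 (−24.5) and sgATF4 in MDA-MB-231 (71.5), and Abiraterone sgSLC35F2 in SKBR3 (−68.2) and sgKEAP1 in HCC-38 (46.5). The adjusted p of these 8 was 0.314 or more.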

How the data were processed

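Genomic DNA barcodes were read in wells of pooled cell lines. The authors demultiplexed reads with bcl2fastq (per the submitters' processing notes) and deposited counts of reads per cell line-sgRNA pair for each well, and a ratio table of relative cell number, for which they fitted a log10-log10 curve of the 5 293T standards in each well and divided by the median of the DMSO wells. Recomputing these ratios from the counts gave the deposited values within 5.315e-05 on the log2 scale over 83520 values. Reads carry no molecular identifier, so 2 reads may stem from 1 molecule.

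Line values were means over sgRNAs (58 pairs, without sgHSF1 and sgKEAP1 in ZR-75-1, which the study left out). The AUC weighted the lowest and the highest dose 0.5. limma 3.58.1 was fitted over all 174 compounds for line responses, the difference of ZR-75-1, AUC and sgRNA contrasts, and over 144 wells for pairs and classes; line responses and the difference of ZR-75-1 were also fitted over all wells, with the spread between wells as error. edgeR 4.0.16 was fitted to the counts of all wells, with the sum of the standards as library size and the dispersion trend estimated from the 144 wells; DESeq2 1.42.0 was an alternative. Benjamini-Hochberg adjustment ran over all tests of a family, with a threshold of 0.05. R 4.3.3, Python 3.11.15 and matplotlib 3.10.9 were used. On simulated data limma recovered 68% of ZR-75-1 changes of −0.5 on the log2 scale and 95% of those of −1, over 696 values. Those data were drawn independently for each line, so they lack the shift that lines of a well share. The fit over wells recovered 59% and 100% in its own simulation.

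The labels number the replicates, and the 5 lines of a replicate come from the same wells. The deviations of the replicates correlated between lines (r = 0.495 to 0.741 over 696 compound-doses), so the numbers pair the values and the fit with the replicate as a block was run. The GEO labels do not say that replicate wells came from separate cultures, so no p-value measures a spread between cultures. The limma fits over compounds treat the lines or sgRNAs of a well as separate values. For line responses the DMSO mean is also taken as fixed, so their p-values do not measure the full spread between wells. For ZR-75-1 with FourHydroxytamoxifen at 10 nM the SE was 0.09 in that fit and 0.15 in the fit over wells. The sgRNAs named were, for each compound, those with the lowest and the highest AUC difference from sgNT among those of the same sign in both replicates, and any past the threshold. The study's methods list FourHydroxytamoxifen and Fulvestrant among its positive controls. The members and lists were chosen with earlier results of these data known.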

Additional observations from a re-analysis of the deposited data

Results flagged for a closer look

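The following values were singled out because ZR-75-1 and the other 4 lines, given the same compound in the same wells, differed in a test of the difference itself (limma, adjusted over all compounds). For FourHydroxytamoxifen the difference was −59.7 in AUC, −0.41 on the log2 scale at 1000 nM and −0.66 at 10000 nM. For Fulvestrant it was −85.4 in AUC, −0.51 on the log2 scale at 100 nM and −0.72 at 1000 nM. ZR-75-1 was lower in both replicate wells in each case. At 10000 nM FourHydroxytamoxifen SKBR3 had fallen as far as ZR-75-1, and it is part of the mean of 4 lines behind −0.66. Taken singly, ZR-75-1 differed there by −0.96 from HCC-38, −0.67 from MDA-MB-231 and −1.02 from BT-20.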

How the results depend on the processing

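Over 35 results and all alternatives, 37 counts moved by over 1.5 times, 27 values gained the threshold, 12 lost it and 0 called values changed sign; the causes were not tested. Values not called changed sign in 14 cases, 11 of them AUC differences of the synthesis inhibitors and 3 the aromatase inhibitors against Abiraterone. With the replicate block the lower line values rose from 12 to 22, the higher from 1 to 11 and the differences of ZR-75-1 by dose from 4 to 8. With sgNT alone, 1 population a line, these counts were 5, 0 and 0, lower ZR-75-1 values 3 of 8, compounds called by AUC 0 (FourHydroxytamoxifen −75.3, Fulvestrant −66.6), pairs over the shared doses 5 of 26, and ligands minus CYP17 inhibitor in the difference from the other lines −0.22 (adjusted p = 0.421). The fit over wells, added after the data were seen, gave 0 higher values and 7 differences by dose; without 1 replicate it gave 8 to 10 lower line values, 5 in ZR-75-1, 0 higher and 3 to 5 differences by dose. Reads in place of cell number gave 9 calls by dose, the 8 ligand values and Anastrozole at 10 nM. The share of the screen called is given neither for reads nor for the fit over wells. The 1 higher value became 2 with the median over sgRNAs, 3 with all 12 sgRNAs of ZR-75-1, 7 with DMSO wells of the same label, 4 with those of the same plate, 4 without the lowest standard, and 0 with pairs of at least 0.5% of reads or the exact permutation test. Exclusion criteria modelled on those of the methods left 1 of 2 sgRNA calls. They took the AUC of sgNT alone, where the methods take that of any cell line-sgRNA pair. They also took the largest sgNT difference between doses, where the methods take the lowest against the highest dose. In the count test, TMM gave 22 lower values (FourHydroxytamoxifen 15, Fulvestrant 5), and fitting members and DMSO alone 51 (Fulvestrant 7). Leaving out 1 replicate gave 37 to 56 lower values, 28 to 38 for FourHydroxytamoxifen and 4 to 13 for Fulvestrant, 9 to 17 pairs over the shared doses and 5 to 16 at single doses; lone wells were assumed to vary like the other groups. The AUC and sgRNA contrasts were tested within a compound, which leaves no residual degrees of freedom without 1 replicate, so they are values with no test there.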
